A study of Mus musculus with 16 samples.

Results

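Neurotrophins are secreted growth factors of the nervous system, and Bdnf, Ntf3, their receptors and the Bdnf-induced secreted precursor Vgf make up the 7 genes described here. They were taken by symbol from the deposited expression table, in which each symbol matched 1 row of 55359 genes: the ligands Bdnf and Ntf3, the tyrosine kinase receptors Ntrk2 (TrkB) and Ntrk3 (TrkC), the death-domain receptor Ngfr (p75NTR), the sorting receptor Sort1 (sortilin) and Vgf. The hippocampal RNA came from C57BL/6JNarl mice, with 4 libraries from each of 4 groups: chronic-stressed males, non-stressed males, chronic-stressed females and non-stressed females. All groups share the strain, and no genotype, drug, age, stressor or duration is given in the sources used here. A label gives each library a pool size, read here as animals, of 3 in both female groups and in non-stressed males and of 2, 2, 1 and 2 in chronic-stressed males. In males, pool size and condition cannot be told apart. The labels do not say whether pools shared animals, so the p-values measure the spread between these libraries only.

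Bdnf and Ntf3 are made as proneurotrophins and cleaved to mature dimers. Mature Bdnf binds Ntrk2 and mature Ntf3 binds Ntrk3, which signal through Ras and MAP kinases, phosphoinositide 3-kinase and phospholipase C gamma, while the proforms bind Ngfr together with Sort1, a pair linked to synaptic weakening and cell death. Bdnf transcription starts from several alternative promoters that respond to neuronal activity, and Vgf, whose peptides are stored in dense-core granules, is a well-known Bdnf target in hippocampal neurons.

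The promoter windows of the ligands and of the main Bdnf receptor are shown because Ntf3 in both sexes and Bdnf in males were called lower, and Ntrk2 higher, in chronic-stressed libraries. RefSeq gave windows, from 250 bases before to 50 after an annotated start on build GRCm38.p6, for 4 of the 7 genes: 7 for Bdnf, 2 for Ntf3, 1 for Ntrk2 and 1 for Ngfr. Capitals mark the motifs that were searched on both strands: the cyclic AMP response element TGACGTCA, its core TGACG, the E-box CACGTG, the GC box GGGCGG and the palindromic glucocorticoid response element. Sequences are written 5′ to 3′ on the strand of the gene. The Bdnf window is the 1 of 7 that held the TGACG core (as CGTCA), both Ntf3 windows held GC boxes and 1 an E-box, and the Ntrk2 window held 1 GC box.
Bdnf, window 3, chr2:109692186-109692485, plus strand: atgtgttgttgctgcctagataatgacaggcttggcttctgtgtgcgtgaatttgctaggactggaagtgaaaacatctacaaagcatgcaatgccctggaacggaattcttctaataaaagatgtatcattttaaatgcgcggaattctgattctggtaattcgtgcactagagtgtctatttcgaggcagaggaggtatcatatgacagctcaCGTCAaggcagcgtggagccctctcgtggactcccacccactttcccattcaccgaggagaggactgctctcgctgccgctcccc
Ntf3, window 1, chr6:126164911-126165210, minus strand: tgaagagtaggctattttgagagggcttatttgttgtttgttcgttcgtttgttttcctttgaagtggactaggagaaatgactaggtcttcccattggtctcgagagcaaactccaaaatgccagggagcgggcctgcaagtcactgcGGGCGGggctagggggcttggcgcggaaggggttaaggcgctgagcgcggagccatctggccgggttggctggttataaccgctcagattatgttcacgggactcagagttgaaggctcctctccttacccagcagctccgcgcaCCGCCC
Ntf3, window 2, chr6:126166695-126166994, minus strand: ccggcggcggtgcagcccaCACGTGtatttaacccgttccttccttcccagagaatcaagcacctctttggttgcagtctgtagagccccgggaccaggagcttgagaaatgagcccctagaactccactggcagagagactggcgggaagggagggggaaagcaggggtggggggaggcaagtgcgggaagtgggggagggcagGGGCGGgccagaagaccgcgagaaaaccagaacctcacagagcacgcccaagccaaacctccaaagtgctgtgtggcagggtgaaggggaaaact
Ntrk2, window 1, chr13:58806319-58806618, plus strand: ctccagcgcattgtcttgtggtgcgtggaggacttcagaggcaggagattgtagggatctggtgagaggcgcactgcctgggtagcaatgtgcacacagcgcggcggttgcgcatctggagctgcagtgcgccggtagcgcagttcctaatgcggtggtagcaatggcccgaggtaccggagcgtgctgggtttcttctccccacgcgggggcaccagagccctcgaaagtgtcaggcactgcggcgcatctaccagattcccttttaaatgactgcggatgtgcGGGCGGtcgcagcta
Of all 32851 promoter windows of this length, 20.8% held the TGACG core, 1.79% the full element, which contains that core, 7.15% the E-box, 35.7% the GC box and 0.00913% the glucocorticoid element. No window of the 4 genes held the full cyclic AMP element or the glucocorticoid element, which says only that these letters are not in these windows. The deposited table does not say which Bdnf start was used.

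Chronic-stressed libraries had less Vgf and Ntf3, and more Ntrk2, Ntrk3 and Sort1 transcript, than non-stressed libraries of the same sex. Bdnf was called lower in males, where its groups overlapped and 12 of 16 fits that left out 1 library lost the call. No sex difference in its stress effect was called (female minus male, 0.10 ± 0.18). Once a trend of counts with exonic length was removed, Ntrk2 in both sexes and Ntrk3 in males changed sign. In that fit those sign-changed values, Ntf3 in both sexes, Ntrk3 in females and Sort1 in males were not called, and Bdnf was called lower in both sexes. All 7 genes passed the filter on low values, which asked for 0.5 FPKM or more in 4 or more of the 16 libraries (FPKM are counts per kilobase of exon, scaled to a library total of 1e+06), although Ngfr reached that level in 15 libraries. Tests are edgeR's quasi-likelihood test over 17569 genes, called at a Benjamini-Hochberg adjusted p under 0.05. The test called 6 of the 7 genes in males, where it called 39.7% of all tested genes (18.5% higher and 21.2% lower), and 5 of the 7 in females, where it called 49.3% (22.1% higher and 27.3% lower). Vgf, Ntf3, Ntrk2, Ntrk3 and Sort1 passed in both sexes with the same sign, as did 34.3% of all tested genes. In the same 5 genes the libraries of the 2 conditions did not overlap in either sex, which held for 32.3% of all tested genes, 45.0% in males and 41.1% in females. At these backgrounds the calls describe the 7 genes and do not set them apart from the transcriptome.

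**Figure D1:**
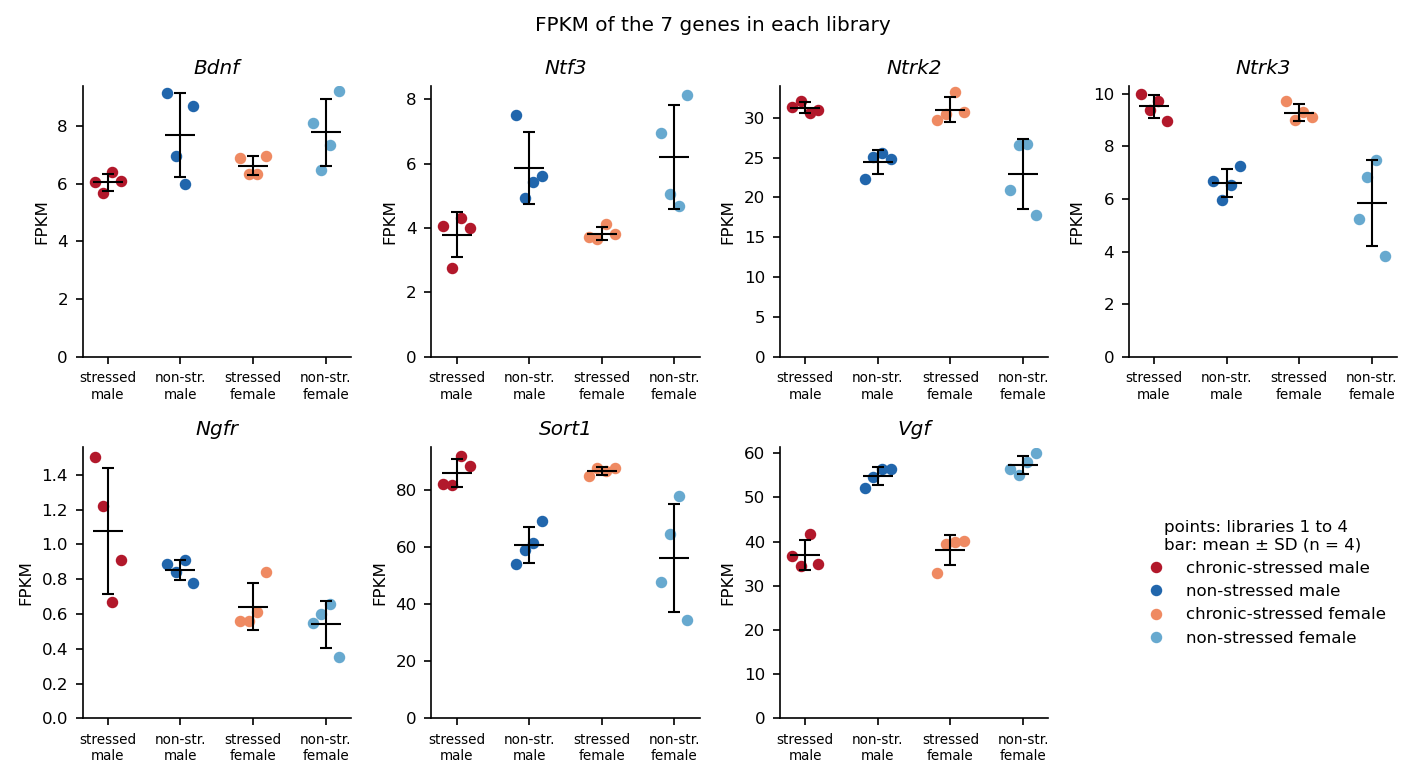
FPKM (vertical axes, from 0) of each of the 7 genes in each of 16 libraries, with points for libraries and bars for the group mean ± SD (n = 4 each); in each sex the chronic-stressed group stands left of the non-stressed group. Vgf and Ntf3 points are lower, and Ntrk2, Ntrk3 and Sort1 points higher, in every chronic-stressed library than in any non-stressed library of that sex, while Bdnf and Ngfr points overlap.

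Chronic-stressed libraries also held a larger share of long transcripts. Sequencing depth was 18.6 to 32.5 M counts per library (M, 1e+06) in chronic-stressed males, against 15.2 to 19.5 M in non-stressed males, and 18.2 to 28.6 M in chronic-stressed females, against 15.8 to 20.1 M in non-stressed females, and no stress call of the 7 genes changed when counts were thinned to the shallowest library. Genes with more than 6 kb of exon took 43.8 ± 0.384% of counts in chronic-stressed males, against 36.3 ± 0.858% in non-stressed males, and 43.7 ± 0.215% in chronic-stressed females, against 35.6 ± 3.66% in non-stressed females (SD, n = 4 each). The median log2 fold change, chronic-stressed over non-stressed, was -0.38 in males and -0.46 in females for tested genes under 2 kb, -0.07 and -0.08 for those of 2 to 6 kb, and 0.25 and 0.28 for those over 6 kb. Called lower were 34.9% of genes under 2 kb and 22.0% of those of 2 to 6 kb in males, and 42.6% and 28.9% in females. Of genes over 6 kb, 44.0% were called higher in males and 50.2% in females. A fit that removed this trend from each library called 2 of the 7 genes in males (27.9% of all tested) and 3 in females (36.8%), and its values stand beside those of each gene. Among non-stressed females, library 4 lay furthest from libraries 2 and 3 (chi-square over degrees of freedom, 83.4 and 99.7). Library 1 was at 23.5 from library 2, 39.2 from library 3 and 24.6 from library 4, and libraries 2 and 3 were at 13.5. A fit without libraries 1 and 4 was also run. Each female stress value of the 7 genes that loses its call there or moves by over 1.5 times is given both ways. In bulk tissue, fewer cells of a type and less RNA per cell cannot be told apart.

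Bdnf, the ligand of Ntrk2, spans chr2:109505045-109557352 (GRCm39, plus strand) with 6217 bases of exon. It had 6.05, 5.68, 6.39 and 6.08 FPKM in chronic-stressed males, against 9.13, 6.97, 5.99 and 8.68 FPKM in non-stressed males. It had 6.89, 6.35, 6.32 and 6.96 FPKM in chronic-stressed females, against 8.11, 6.46, 7.34 and 9.21 FPKM in non-stressed females. The groups overlapped in both sexes: the chronic-stressed libraries were close together, and the non-stressed ones ranged from the stressed level upward. The log2 fold change was -0.33 ± 0.13 in males (edgeR adjusted p = 0.0445) and -0.24 ± 0.13 in females (edgeR adjusted p = 0.128, not called). The male call was lost in 12 of 16 fits that left out 1 library, with values from -0.44 to -0.24, and in females the value was -0.03 without non-stressed libraries 1 and 4 and 0.03 on the TPM scale, where the sign reversed. With the trend of counts with exonic length removed, Bdnf was lower in both sexes, at -0.47 ± 0.15 in males and -0.42 ± 0.15 in females (edgeR adjusted p = 0.0268 and 0.0343). Of genes over 6 kb, the class Bdnf belongs to, 4.82% were called lower and 44.0% higher in males, and 7.58% and 50.2% in females.

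Ntf3, the preferred ligand of Ntrk3, spans chr6:126078375-126143873 (GRCm39, minus strand) with 1714 bases of exon. It had 4.08, 2.76, 4.31 and 4.01 FPKM in chronic-stressed males, against 7.51, 4.93, 5.45 and 5.61 FPKM in non-stressed males. It had 3.71, 3.67, 4.12 and 3.81 FPKM in chronic-stressed females, against 6.95, 5.05, 4.69 and 8.15 FPKM in non-stressed females. Every chronic-stressed library lay below every non-stressed library of its sex. Ntf3 fell by 0.61 ± 0.19 in males (edgeR adjusted p = 0.0155) and by 0.70 ± 0.19 in females (edgeR adjusted p = 0.00548) on the log2 scale. The counts behind these values were 91 to 240 per chronic-stressed male library, against 128 to 210 per non-stressed male library. Without non-stressed female libraries 1 and 4, which had the highest levels, the female value was -0.32 ± 0.17 (edgeR adjusted p = 0.177). With the length trend removed it was -0.22 in males and -0.30 in females (edgeR adjusted p = 0.36 and 0.18), and the male call was also lost without chronic-stressed male library 2 or non-stressed male library 1, at -0.48 in both fits.

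Ntrk2 encodes TrkB, the Bdnf receptor, which neurons express mainly as the full-length kinase and astrocytes as a truncated form; the table holds 1 value for all forms. It spans chr13:58954383-59281784 (GRCm39, plus strand) with 19292 bases of exon. Ntrk2 had 31.3, 32.1, 30.5 and 30.9 FPKM in chronic-stressed males, against 22.3, 25.1, 25.5 and 24.9 FPKM in non-stressed males. In females it had 29.7, 30.5, 33.2 and 30.7 FPKM in chronic-stressed libraries, against 20.9, 26.5, 26.7 and 17.8 FPKM in non-stressed libraries. All chronic-stressed libraries were higher than all non-stressed ones of their sex, and non-stressed female libraries 1 and 4 were the lowest of all 16. Ntrk2 rose 1.29-fold in males (log2 0.36 ± 0.10, edgeR adjusted p = 0.00877) and 1.35-fold in females (0.43 ± 0.10, edgeR adjusted p = 0.00236), but with the length trend removed the values reversed to -0.15 and -0.09, neither called. The female value without libraries 1 and 4 was 0.25 ± 0.07 (edgeR adjusted p = 0.00997).

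Ntrk3, the Ntf3 receptor TrkC, spans chr7:77825707-78387760 (GRCm39, minus strand) and has the most exon sequence of the 7 genes, 30170 bases. It had 9.98, 9.37, 9.72 and 8.97 FPKM in chronic-stressed males, against 6.66, 5.95, 6.53 and 7.23 FPKM in non-stressed males. In females it had 9.73, 8.98, 9.29 and 9.11 FPKM in chronic-stressed libraries, against 5.24, 6.82, 7.46 and 3.83 FPKM in non-stressed libraries. The groups did not overlap in either sex. Ntrk3 rose 1.45-fold in males (log2 0.54 ± 0.14, edgeR adjusted p = 0.00545) and 1.59-fold in females (0.67 ± 0.14, edgeR adjusted p = 0.000992), but with the length trend removed it was -0.09 in males, a reversed sign, and 0.06 in females, neither called. The female value without non-stressed libraries 1 and 4 was 0.41 ± 0.08 (edgeR adjusted p = 0.000553).

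Sort1 encodes sortilin, which carries proneurotrophins through the secretory pathway and joins Ngfr as co-receptor for the proforms, and it spans chr3:108191398-108268827 (GRCm39, plus strand) with 7569 bases of exon. It had 82.1, 82.0, 92.2 and 88.4 FPKM in chronic-stressed males, against 54.0, 58.9, 61.5 and 69.2 FPKM in non-stressed males. In females it had 84.9, 87.8, 86.9 and 87.8 FPKM in chronic-stressed libraries, against 47.8, 64.6, 78.1 and 34.6 FPKM in non-stressed libraries. All 8 chronic-stressed libraries lay above all 8 non-stressed ones, and the non-stressed females had the widest spread of the 4 groups. Sort1 rose 1.43-fold in males (log2 0.51 ± 0.16, edgeR adjusted p = 0.0206) and 1.54-fold in females (0.63 ± 0.16, edgeR adjusted p = 0.00531). With the length trend removed the values were 0.30 ± 0.12 in males (edgeR adjusted p = 0.0744) and 0.41 ± 0.12 in females (edgeR adjusted p = 0.0162). The female value without non-stressed libraries 1 and 4 was 0.31 ± 0.10 (edgeR adjusted p = 0.0218), and the male call was lost without chronic-stressed male library 3 or non-stressed male library 1, at 0.47 and 0.45.

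Ngfr, the p75 receptor, is known in the adult forebrain mainly on basal forebrain cholinergic neurons, which project to the hippocampus, and was the lowest of the 7 genes. It spans chr11:95459644-95478561 (GRCm39, minus strand) with 3446 bases of exon. Ngfr had 1.5, 1.22, 0.67 and 0.91 FPKM in chronic-stressed males, against 0.89, 0.84, 0.91 and 0.78 FPKM in non-stressed males. In females it had 0.56, 0.56, 0.61 and 0.84 FPKM in chronic-stressed libraries, against 0.55, 0.60, 0.66 and 0.35 FPKM in non-stressed libraries. The conditions overlapped in both sexes, chronic-stressed male libraries 1 and 2 being the highest of the 16. The difference was 0.32 ± 0.23 in males (edgeR adjusted p = 0.278) and 0.23 ± 0.24 in females (edgeR adjusted p = 0.445) on the log2 scale. Neither was called, at 22 to 96 counts per library. With the length trend removed the difference was 0.44 ± 0.22 in males and 0.34 ± 0.24 in females (edgeR adjusted p = 0.16 and 0.278), and without non-stressed female libraries 1 and 4 the female difference was 0.04 ± 0.28 (edgeR adjusted p = 0.922).

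Vgf encodes a precursor of secreted peptides of neurons and endocrine cells, spans chr5:137055246-137062205 (GRCm39, plus strand) and has 2973 bases of exon. It had 36.7, 34.5, 41.8 and 34.9 FPKM in chronic-stressed males, against 52.2, 54.7, 56.5 and 56.4 FPKM in non-stressed males. In females it had 33.0, 39.5, 39.9 and 40.1 FPKM in chronic-stressed libraries, against 56.4, 55.0, 58.0 and 59.9 FPKM in non-stressed libraries. The conditions were set well apart in both sexes, with no chronic-stressed library above 41.8 FPKM and no non-stressed one below 52.2 FPKM. Vgf fell to 0.679 of the non-stressed level in males (log2 -0.56 ± 0.08, edgeR adjusted p = 6.67e-05) and to 0.663 in females (-0.59 ± 0.08, edgeR adjusted p = 3.69e-05). It was called lower in both sexes in the main fit and in each of 17 other settings, at -0.60 to -0.33 in males and -0.59 to -0.34 in females, with -0.37 and -0.41 when the length trend was removed.

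**Figure D2:**
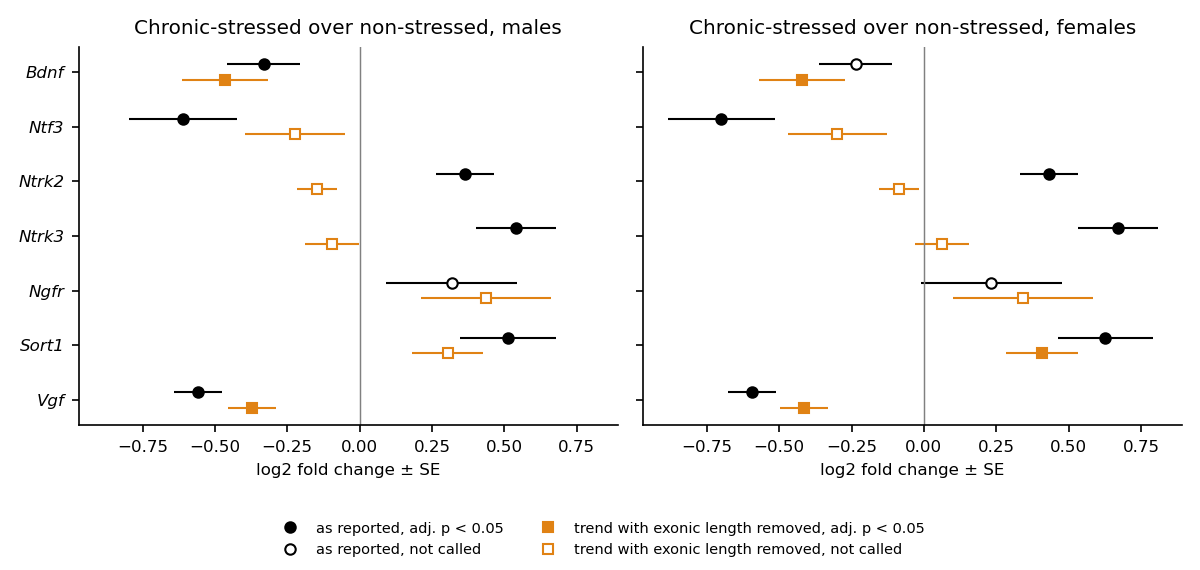
Log2 fold change ± SE (horizontal axes, chronic-stressed over non-stressed) of the 7 genes in males and females, as reported (circles) and with the trend of counts with exonic length removed (squares); filled symbols have an adjusted p under 0.05. Vgf stays called on the lower side in all 4 estimates, while Ntrk2 and, in males, Ntrk3 change sign between the 2 estimates.

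The order of the genes by FPKM, which is a level per length, was Sort1, Vgf, Ntrk2, Ntrk3, Bdnf, Ntf3 and Ngfr in both chronic-stressed groups. Neighbours in this order did not overlap over the 4 libraries, except Vgf and Ntrk2 in chronic-stressed females. In non-stressed males the order was Sort1, Vgf, Ntrk2, Bdnf, Ntrk3, Ntf3 and Ngfr, and Sort1 overlapped with Vgf, Bdnf with Ntrk3 and Ntrk3 with Ntf3. In non-stressed females Vgf, at 57.3 ± 2.13 FPKM, and Sort1, at 56.3 ± 19.0 FPKM, overlapped, and so did Bdnf with Ntf3 and Ntf3 with Ntrk3 (SD, n = 4). The ratio of Ntrk3 to Ntf3 FPKM within a library averaged 2.58 ± 0.549 in chronic-stressed males, against 1.15 ± 0.177 in non-stressed males, and 2.43 ± 0.152 in chronic-stressed females, against 1.04 ± 0.519 in non-stressed females (SD, n = 4 each). Within each sex these ratios cannot overlap between conditions, since every chronic-stressed library was higher for Ntrk3 and lower for Ntf3 than every non-stressed one. The ratio of Ntrk2 to Bdnf FPKM averaged 5.17 ± 0.365 in chronic-stressed males, against 3.29 ± 0.806 in non-stressed males, and 4.69 ± 0.427 in chronic-stressed females, against 3.06 ± 0.991 in non-stressed females. Both ratios set a gene with much exon sequence against a shorter one.

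**Figure D3:**
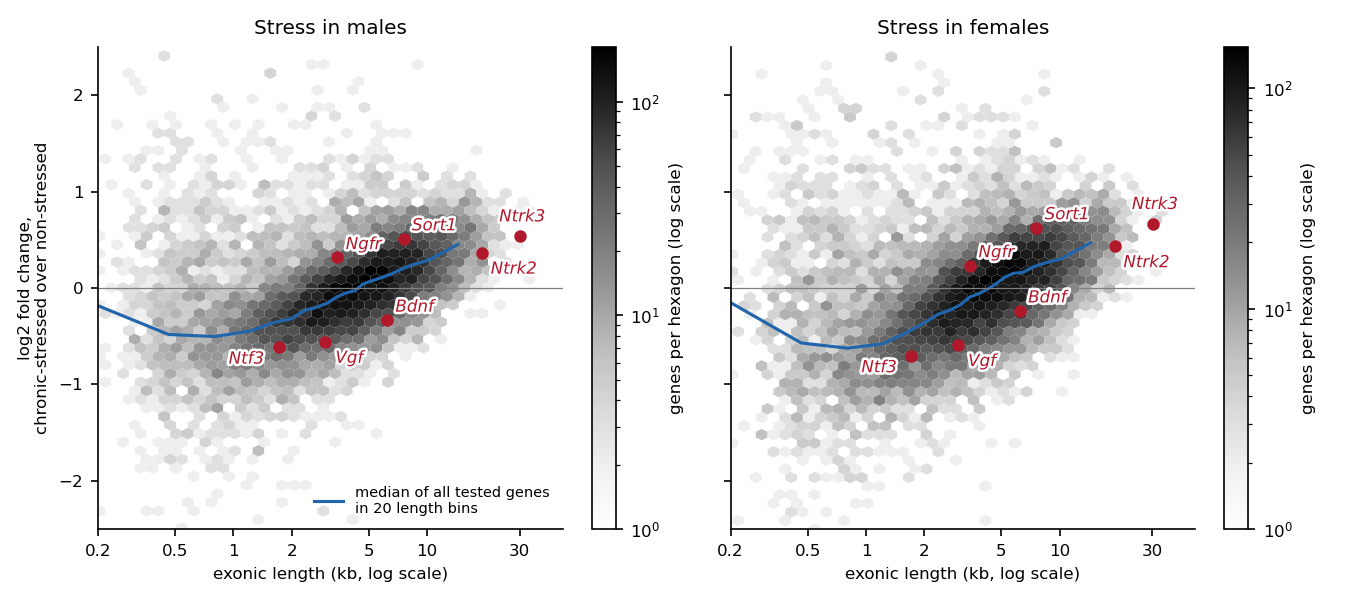
Log2 fold change of the 17569 tested genes (vertical axes, chronic-stressed over non-stressed) against exonic length in kb (log scale), shaded by number of genes per hexagon on a log scale, with the median of all genes in 20 length bins as a line and the 7 genes as named points. The median climbs with length over most of the range in both panels. Vgf and Bdnf lie below the line and Sort1 and Ngfr above it in both sexes. Ntrk2 and Ntrk3 belong to the bin of the longest genes and lie to the right of the point where the line ends.

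No difference in the stress effect between the sexes was called for any of the 7 genes (0 at an unadjusted p under 0.05; none by DESeq2 or limma on FPKM), nor for any of the 17569 tested (0.00%; edgeR, 374 genes at an unadjusted p under 0.05; limma on FPKM with a pseudocount of 0.1 and limma on TPM called 1 gene each). The female minus male differences of the log2 fold changes ran from -0.09 ± 0.26 for Ntf3 to 0.13 ± 0.19 for Ntrk3. The comparison of females with males called none of the 7 in chronic-stressed mice, where it called 0.0398% of all genes, and none in non-stressed mice, where it called 0.0455%; DESeq2 and limma on FPKM called none of the 7 either, and 1 of them, Ngfr, had an unadjusted edgeR p under 0.05 in each. Ngfr was the gene with the widest gap, at 0.642 ± 0.134 FPKM in chronic-stressed females, against 1.07 ± 0.362 FPKM in chronic-stressed males, and 0.540 ± 0.134 FPKM in non-stressed females, against 0.855 ± 0.0580 FPKM in non-stressed males (SD, n = 4 each). Its log2 difference was -0.74 ± 0.23 in chronic-stressed mice (unadjusted p = 0.00484, edgeR adjusted p = 1) and -0.65 ± 0.24 in non-stressed mice (unadjusted p = 0.0159, edgeR adjusted p = 0.651). The sexes did not overlap for Ngfr in non-stressed mice, which held for 1.77% of all tested genes, and overlapped in chronic-stressed mice.

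Among the other ligands and receptors, Sorl1 and Sorcs1, sorting receptors of the sortilin family, rose in both sexes. Of 6 tested genes of this list, 2 rose and none fell in males, and 4 rose and none fell in females. Of all tested genes 18.5% were called higher and 21.2% lower in males, and 22.1% and 27.3% in females. The median log2 fold change was 0.32 and 0.54, against -0.03 for all tested genes in each sex. Sorl1 and Sorcs1 have 11321 and 8441 bases of exon, and of genes over 6 kb 44.0% were called higher in males and 50.2% in females. Sorl1 rose by 0.65 ± 0.12 in males and 0.63 ± 0.12 in females (edgeR adjusted p = 0.000501 and 0.000564), and Sorcs1 by 0.50 ± 0.15 and 0.54 ± 0.15 (edgeR adjusted p = 0.0174 and 0.00849). Sorl1 was at 0.30 in males and 0.26 in females, both called, and Sorcs1 at 0.24 and 0.26, neither called, once the length trend was removed. Sorcs2 and Sorcs3 completed the female count. Ntf5 (neurotrophin-4) stayed below the filter, with at most 16 counts in a library. Of 9 tested genes for proneurotrophin cleavage, none was called in males by the main edgeR fit, DESeq2 or limma on FPKM. The main fit had 0 of them at an unadjusted p under 0.05 in males. With the compared groups alone, edgeR called 2 higher and 1 lower in males and 0 in females. Limma with voom weights called 1 higher and 1 lower in males. In females of the main fit the convertases Furin and Pcsk7 rose while the protease inhibitor Serpini1 fell. Plat, tissue plasminogen activator, differed by -0.12 ± 0.07 in males and -0.05 ± 0.07 in females and was not called. With the length trend removed, Plat (-0.25 in males and -0.22 in females), Serpini1 (-0.44 and -0.62) and the convertase Pcsk5 (-0.39 in each) were called lower in both sexes, and Pcsk7 (0.29) was the gene called higher, in females.

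Genes downstream of the Trk receptors were more often called higher than lower. Of 40 tested, 20 rose and 1, the adaptor Grb2, fell in males, and 18 rose and 2, Hras and Map2k2, fell in females, with medians of 0.28 and 0.22. Of all tested genes 18.5% were called higher and 21.2% lower in males, and 22.1% and 27.3% in females, and of those over 6 kb 44.0% and 50.2% were called higher in males and females. Shc3, a neuronal adaptor of Trk receptors, had 24.6 ± 1.65 CPM (counts scaled to a library total of 1e+06) in chronic-stressed males, against 6.04 ± 1.92 CPM in non-stressed males, and 24.5 ± 0.734 CPM in chronic-stressed females, against 7.24 ± 5.56 CPM in non-stressed females (SD, n = 4 each). Shc3 rose by 2.03 ± 0.35 in males and 1.74 ± 0.34 in females on the log2 scale (edgeR adjusted p = 0.000254 and 0.000624), and its log2 fold change was 2.02 and 1.72 with the length trend removed. The guanine exchange factor Sos1 and the phosphatase Ptpn11 also rose in both sexes, by 0.37 to 0.55. Once the length trend was removed, Ptpn11 was at 0.34 in males and 0.28 in females, both called. Sos1 was then at 0.13 in males and -0.00405 in females, neither called. The list count in that fit was 8 higher and 1 lower in males and 9 higher and 4 lower in females.

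Of 23 tested genes of p75 signalling, 5 rose and 3 fell in males and 6 rose and 5 fell in females, with medians of -0.01 and 0.09; calls in either direction took 39.7% of all tested genes in males and 49.3% in females, so these counts are near the background. Traf6, an adaptor that binds p75, rose by 0.72 ± 0.08 in males and 0.66 ± 0.08 in females (edgeR adjusted p = 2.79e-06 and 6.98e-06), and the kinases Mapk8 and Mapk9 and the p75-binding zinc finger protein Prdm4 rose in both sexes. Rhoa, a GTPase under p75 control, fell by 0.41 ± 0.06 in males and 0.43 ± 0.06 in females, and Aph1a, a subunit of the gamma-secretase that cleaves p75, fell by 0.41 ± 0.09 in each. Bex3, a p75-associated protein, also fell in both sexes. Traf6, Rhoa and Aph1a were also called in both sexes, with the same sign, after the length trend was removed, while Mapk9 and Bex3 were called in neither and Mapk8 was at -0.11 in males and -0.20 in females, a reversed sign, neither called. Adam17 passed in males, while Ndn and Arhgdib, both lower, passed in females.

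Of 20 tested regulators of Bdnf transcription, 8 rose and 1 fell in males and 9 rose and 3 fell in females, with medians of 0.30 and 0.26, where 39.7% and 49.3% of all tested genes were called in either direction. The calcium-dependent kinase Camk4 rose by 0.90 ± 0.12 in males and 0.69 ± 0.12 in females (edgeR adjusted p = 3.31e-05 and 0.000286). The DNA demethylase Tet1 rose by 0.85 ± 0.12 in males and 0.67 ± 0.12 in females, and was at 0.40 in males and, not called, 0.19 in females with the length trend removed. The coactivator Crebbp rose in both sexes too, but was at -0.02 in males and -0.20 in females with the trend removed, neither called. Creb1, the factor that binds the cyclic AMP element, rose by 0.30 ± 0.09 in males (edgeR adjusted p = 0.0136) and differed by 0.10 ± 0.09 in females (edgeR adjusted p = 0.378); with the length trend removed it was at -0.11 in males, not called, and at -0.37 in females, called lower. Npas4, an activity-induced factor, was the gene that fell in males, by 0.93 ± 0.18 (edgeR adjusted p = 0.000656), and differed by -0.32 ± 0.17 in females (edgeR adjusted p = 0.134), while Hdac2, Usf1 and Usf2 fell in females. Removing the length trend left Hdac2 at -0.49 in females, called, and Usf1 at -0.02 and Usf2 at -0.04, neither called.

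Other genes of dense-core granules moved in both directions. Of 17 tested, 1 rose and 4 fell in males and 2 rose and 6 fell in females, with medians of -0.03 and 0.05, where 18.5% of all tested genes were called higher and 21.2% lower in males, and 22.1% and 27.3% in females. The granin Chgb had 523 ± 25.2 CPM in chronic-stressed males, against 664 ± 37.7 CPM in non-stressed males, and 541 ± 8.57 CPM in chronic-stressed females, against 750 ± 137 CPM in non-stressed females (SD, n = 4 each), and fell in both sexes. Scg5, a chaperone of the convertase Pcsk2, and Pcsk1n, an inhibitor of Pcsk1, fell in both sexes, as did C1qbp, a mainly mitochondrial protein reported to bind a Vgf-derived peptide. After the length trend was removed, Chgb was at -0.11 in males and -0.26 in females, Scg5 at -0.03 and -0.15 and C1qbp at -0.21 and -0.32, none called, and Pcsk1n was at -0.27 in males, not called, and at -0.70 in females, called. Pam, which amidates peptides, rose by 0.34 ± 0.08 in males and 0.36 ± 0.08 in females and was at -0.03 and -0.05 with the length trend removed. Cpe and Scg3, lower, and Ptprn2, higher, passed in females. The granin Scg2 differed by -0.04 ± 0.11 in males and -0.14 ± 0.11 in females, the convertase Pcsk1 by 0.09 ± 0.10 in each, and C3ar1, a receptor of a Vgf-derived peptide, by -0.03 ± 0.24 and 0.28 ± 0.24; none was called.

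These counts moved with the fit. With the length trend removed, 1 other ligand or receptor rose in each sex and none fell, no cleavage gene rose and 3 fell in males and 1 rose and 3 fell in females, 2 genes of p75 signalling rose and 3 fell in males and 5 rose and 3 fell in females, 4 regulators of Bdnf rose and 3 fell in males and 5 rose and 3 fell in females, and no dense-core granule gene rose while 1 fell in males and 2 in females. Without non-stressed female libraries 1 and 4, the female calls in either direction were 1 for the other ligands and receptors, 0 for cleavage, 20 for Trk signalling, 8 for p75 signalling, 8 for the regulators of Bdnf and 5 for dense-core granules. In males that fit called 4 other ligands and receptors higher and 0 lower, and 2 cleavage genes higher and 1 lower. It called 25 genes of Trk signalling higher and 3 lower, and 8 and 4 of p75 signalling. The male counts were 11 and 3 for the regulators of Bdnf, and 3 and 6 for dense-core granules. Of all 17569 tested genes, it called 4741 higher and 4570 lower in males.

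**Figure D4:**
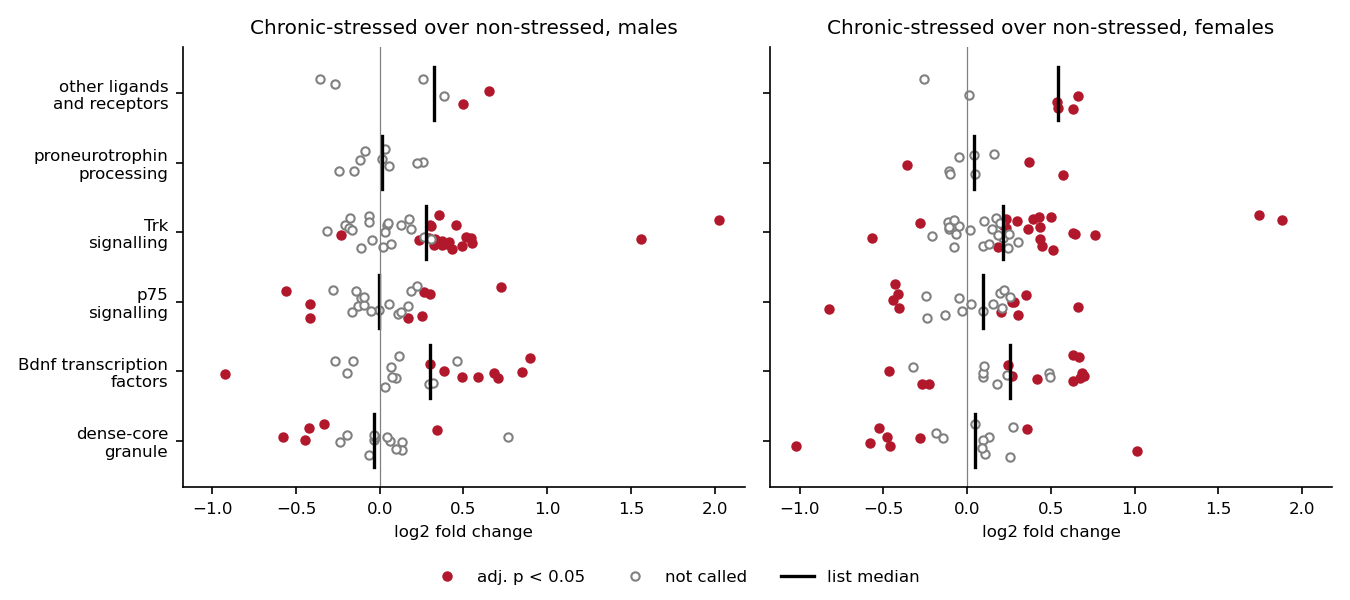
Log2 fold change (horizontal axes, chronic-stressed over non-stressed) of each tested gene of 6 pathway lists in males and females; filled points have an edgeR adjusted p under 0.05 and vertical bars mark list medians. Shc3 of Trk signalling is among the points furthest right in each sex; medians of Trk signalling are 0.28 and 0.22, against -0.03 for all tested genes.

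Marker levels of 16 cell types and regions were read beside these results. The summed CPM of 10 astrocyte markers did not overlap between conditions, at 4960 to 5410 in chronic-stressed males, against 4578 to 4810 in non-stressed males, and 5013 to 5451 in chronic-stressed females, against 4370 to 4891 in non-stressed females; 2 markers rose and 3 fell in males, and 3 rose and 3 fell in females. The sum of 12 interneuron markers was lower, at 1029 to 1137 CPM in chronic-stressed males, against 1195 to 1277 CPM in non-stressed males, and 1022 to 1065 CPM in chronic-stressed females, against 1170 to 1733 CPM in non-stressed females; 2 rose and 4 fell in males, and 2 rose and 6 fell in females. Calls in either direction took 39.7% of all tested genes in males and 49.3% in females. No astrocyte marker was called higher in either sex once the length trend was removed. In that fit Slc1a2 was at 0.04 in males and 0.02 in females, and Sox9 and Gja1 were called lower in both. The sums were taken from CPM with that trend left in. The microglial sum was lower in males and the meningeal sum lower in females, without overlap, and the sums of the other 12 lists overlapped in both sexes. No marker of any list was at 0 throughout a group, those of dentate granule, CA1 and CA3 neurons included. Ntrk2 is also expressed by astrocytes, and the part of these markers in its change, or in that of any of the 7 genes, was not tested.

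Genes on the opposite strand overlapped or lay within 5 kb of 5 of the 7 genes (71.4%), against 66.3% of all tested genes, and the strand setting of the counting is not given in the sources used here. Ap1s1, which codes for an adaptor subunit of vesicle coats, lies on the other strand with its 3′ end 1642 bases beyond that of Vgf, and it fell by 0.66 ± 0.11 in males and 0.75 ± 0.11 in females (edgeR adjusted p = 0.000195 and 6.38e-05). The unnamed transcript Gm9885, within Ntrk3, differed by -0.27 ± 0.22 in males (edgeR adjusted p = 0.338) and fell by 0.82 ± 0.21 in females (edgeR adjusted p = 0.00499). Gm45346, which overlaps the 5′ end of Bdnf, had 7, 5, 13 and 6 counts in chronic-stressed males, against 0 in each non-stressed male library, and 5, 7, 4 and 9 counts in chronic-stressed females, against 0, 4, 1 and 0 in non-stressed females. Bdnf itself had 657 to 1292 counts in male libraries and 742 to 1124 in female ones. The mitochondrial gene mt-Nd6, which lies on the strand opposite to most mitochondrial genes, had 97.9 ± 8.78 CPM in chronic-stressed males, against 1684 ± 264 CPM in non-stressed males, and 83.9 ± 16.1 CPM in chronic-stressed females, against 1708 ± 521 CPM in non-stressed females, while its opposite-strand neighbour mt-Nd5 had 5796 ± 355 CPM in chronic-stressed males, against 5691 ± 373 CPM in non-stressed males, and 5695 ± 359 CPM in chronic-stressed females, against 4112 ± 1723 CPM in non-stressed females (SD, n = 4 each). Ntf3 and Ngfr have no opposite-strand neighbour within 5 kb, and in a fit of genes without one the Ntf3 values were -0.59 in males and -0.65 in females, both called. For the other 5 genes the part of opposite-strand reads was not tested. Whether chronic-stressed and non-stressed libraries differed in strandedness, which could move counts with condition, was not tested either.

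The genes whose levels ran most alike to each of the 7 were found by Pearson's r of log2 CPM, centred on group means, over 16 libraries that share depth and composition. They were picked as the highest of 12404 genes searched (12405 for Ngfr), so their r values are maxima of a large search. Sort1 ran most like the long noncoding RNA Miat and the phosphatase subunit Ppp1r12b (r = 0.993 each), Ntrk3 like Zmynd11 and Slc24a4 (0.984 and 0.982) and Ntrk2 like Prpf8 and Nfasc (0.981 each). Bdnf ran most like Stau2 and Ap1ar (0.947 and 0.945), Ntf3 like Skap2 and Zfand2b (0.911 and 0.910), Vgf like Slc25a29 and Ube2q1 (0.830 and 0.807) and Ngfr like Nupl2 and Pyroxd1 (0.801 and 0.800). Among the 7 genes themselves, r was 0.922 for Ntrk3 with Sort1 and 0.901 for Ntrk2 with Sort1, and 0.837 and 0.803 over the 14 libraries without non-stressed female libraries 1 and 4. Bdnf and Ntf3 gave 0.706, and 0.615 without those 2 libraries. Ntrk2 gave -0.719 with Bdnf and -0.771 with Ntf3, and -0.634 and -0.655 without those 2 libraries. These values over 14 libraries were still centred on group means of all 16. They therefore do not show r free of libraries 1 and 4. For Vgf the value furthest from 0 was -0.369, with Ngfr.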

How the data were processed

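Hippocampal RNA was read as whole-number counts and FPKM per gene and library from the authors' deposited table. Counts come from reads aligned with HISAT2 2.0.1 and counted with HTSeq 0.6.1 on build GRCm39, per the submitters' processing notes; the strand setting and annotation release are not given in the sources used here. FPKM were deposited by the authors and were recomputed from the counts, exonic lengths and library totals within 0.005. No 2 libraries of a group agreed within sampling noise (chi-square over degrees of freedom, 2.96 or more).

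Genes with FPKM of 0.5 or more in 4 or more libraries (17569) were tested with edgeR 4.0.16 in R 4.3.3 (TMM scaling, quasi-likelihood, all 16 libraries, 4 group means), with Benjamini-Hochberg adjustment over all of them. The fit was also run on simulated data, in which genes changed in chronic-stressed males alone and no trend with length was put in. That simulation cannot show how the fit behaves under such a trend. SE is the log2 fold change divided by the root of F. Alternatives used limma 3.58.1 on log2(FPKM + 0.1, 0.5 or 1), TPM, quantile scaling and voom weights, DESeq2 1.42.0, RLE or no scaling, other filters, compared groups alone, a robust spread, thinned counts, a replicate block, single libraries left out, and a spline of log2 CPM on log exonic length (4 degrees of freedom) as offsets. Promoters came from RefSeq (GRCm38.p6); figures used matplotlib 3.10.9.

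Named genes were the 7 genes, fixed pathway genes (some genes the rule names are not reported here), up to 4 per pathway list that passed in both sexes by smallest male p, the 2 most alike genes of each, opposite-strand neighbours, up to 3 markers of cell-type lists that stood apart (given here as counts and sums), mt-Nd5 and mt-Nd6. Genes that complete a count of 5 or fewer (Sorcs2, Sorcs3, Pcsk7, Pcsk5, Serpini1, Grb2, Hras, Map2k2, Mapk8, Prdm4, Bex3, Adam17, Ndn, Arhgdib, Npas4, Hdac2, Usf1, Usf2, Pcsk1n, Cpe, Scg3 and Ptprn2) were chosen after their values were seen. The astrocyte markers named were also chosen after their values were seen. The members and lists were chosen with earlier results of these data known.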

Additional observations from a re-analysis of the deposited data

Results flagged for a closer look

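Vgf in chronic-stressed female library 1, at 98.0 CPM, lay far below the other 3 libraries of its group, at 117 to 119 CPM, with a gap of 0.923 of the group's range; 28 groups were examined in this way, and chance flags about 1 in 20. Without that library the female Vgf difference stayed called. Gm45346, the transcript on the strand opposite to the 5′ end of Bdnf, was under the filter and in no test: its libraries summed to 31 counts in chronic-stressed males, against 0 in non-stressed males, and to 25 counts in chronic-stressed females, against 5 in non-stressed females.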

How the results depend on the processing

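Of the 7 genes, Vgf kept its direction and its call under stress in every setting that included it. The fit of genes with no opposite-strand neighbour left Vgf out, because Ap1s1 lies 1642 bases away. In males Bdnf was no longer called with RLE scaling (-0.31), DESeq2 (-0.31), TPM (-0.09), no filter (-0.29) or the strict filter (-0.32), nor Ntf3 with TPM (-0.38). The TPM scale shifted the median gene upward, by 0.22 (males) and 0.23 (females), and Bdnf in females to 0.03, a reversed sign; relative to the median of all genes Bdnf was at -0.28 and -0.19. On that scale 75.3% of male and 73.8% of female calls were higher, against 46.6% and 44.8% in the main fit. With the length trend removed, Ntf3 (-0.22), Ntrk2 (-0.15), Ntrk3 (-0.09) and Sort1 (0.30) were not called in males, leaving 2 of the 7, and Ntf3 (-0.30), Ntrk2 (-0.09) and Ntrk3 (0.06) in females, leaving 3 and adding Bdnf (-0.42). The alternative removes the trend by construction; what the trend itself comes from was not tested.

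Without non-stressed female libraries 1 and 4, the female Ntf3 call was lost (-0.32), 5594 genes were called in females against 8668, the female minus male difference of the stress effect turned for Ntf3 (0.26), Ntrk2 (-0.15), Ntrk3 (-0.16) and Sort1 (-0.23), and the difference of non-stressed females from males turned for Bdnf (-0.15), Ntf3 (-0.26), Ntrk2 (0.13), Ntrk3 (0.12) and Sort1 (0.24). That female minus male difference also turned for Ngfr with thinned counts (0.04) and Vgf with quantile scaling (0.05) or voom weights (0.06), and the non-stressed sex difference of Vgf with quantile scaling (-0.01); none of these was called, and the cause was not tested. A fit of the 5927 genes with no opposite-strand neighbour called 2110 genes in males and 2650 in females.

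Leaving out 1 library at a time gave, in males, -0.44 to -0.24 for Bdnf, -0.69 to -0.48 for Ntf3, 0.45 to 0.58 for Sort1 and 3 to 6 genes called, 3 being without non-stressed male library 1; in females it gave -0.32 to -0.13 for Bdnf, called without non-stressed female library 2. Sex differences of the stress effect, none called, ran from -0.22 to 0.09 for Ntf3, -0.03 to 0.16 for Ntrk2, -0.02 to 0.28 for Ntrk3, -0.26 to 0.11 for Ngfr, -0.05 to 0.32 for Sort1 and -0.07 to 0.04 for Vgf. Non-stressed sex differences ran from -0.08 to 0.11 for Bdnf, -0.09 to 0.22 for Ntf3, -0.17 to 0.01 for Ntrk2 and -0.32 to 0.06 for Sort1.

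Same-numbered libraries correlated at -0.233 to 0.171 in their deviations from group means, so the replicate numbers were not taken to pair samples; with the replicate block Vgf was at -0.56 in males and -0.59 in females, 6 and 5 of the 7 genes were called, and no call of the 7 changed.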
